A study of Mus musculus with 16 samples.

Results

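A set of 9 genes tied to the surface or the effector functions of regulatory T (Treg) cells was followed through the deposited RNA-seq data, leaving aside lineage transcription factors, IL-2 receptors and checkpoint receptors. The genes were Entpd1, Nt5e, Lrrc32, Nrp1, Ebi3, Penk, Izumo1r, Gpr83 and Capg, and they were found by symbol among the 53090 genes of each table, so that 9 of 9 were measured. Splenic naïve CD4+ T cells (Tn, CD44low CD62Lhigh, freshly isolated by magnetic selection) and CD4+ T cells kept for 48 h (2 days) with antibodies to CD3 and CD28, recombinant human TGF-beta and recombinant mouse IL-2 (Treg) were taken from C57BL/6 wild-type (WT) mice and from mice deficient in AIM2 (Aim2-/-, labelled Aim2 KO, on the C57BL/6 background), with 4 libraries in each of the 4 groups. The kind of mutation is not stated in the sources used here. Aim2 encodes a sensor of cytosolic DNA. The study matched mice for sex and age, whereas the age, and whether each library came from a separate mouse, are not given in the sources used here, so p-values measure the spread between these libraries. The Treg libraries hold RNA of all cells in the culture, with no sort for FOXP3.

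Treg cells restrain other T cells partly through molecules on their surface. CD39, encoded by Entpd1, and CD73, encoded by Nt5e, act in sequence to turn extracellular ATP into AMP and then adenosine, which dampens T cell activation. GARP, encoded by Lrrc32, holds latent TGF-beta on the cell surface, and neuropilin-1, encoded by Nrp1, is a co-receptor for semaphorins, VEGF and TGF-beta. Ebi3 is the subunit shared by the cytokines IL-27 and IL-35, Penk is the precursor of the enkephalin opioid peptides, Izumo1r encodes folate receptor 4, Gpr83 is a G protein-coupled receptor frequent in Treg cells, and Capg encodes a protein that caps actin filaments.

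After culture, 7 of the 8 genes with enough counts before and after were called higher in both genotypes, beside 36.2% of all such genes in WT and 38.7% in Aim2-/- cells. The rise of the 7 genes in WT cells was from 2.10-fold for Izumo1r to 72.8-fold for Nrp1, and Penk was the exception. The ninth, Ebi3, was near the floor before culture and was measured in every library after it. None of the genes tested passed between Aim2-/- and WT cells, either in Tn or in Treg cells, and few genes of any kind did (31 of 13441 in Tn and 29 of 13221 in Treg cells). Between the lowest and the highest of the 8 Treg libraries, Nt5e differed 2.03-fold, Nrp1 3.67-fold, Lrrc32 4.41-fold and Entpd1 6.17-fold. Levels are CPM, that is, a gene's counts as a share of its library total scaled to 1000000, after TMM scaling over the 16 libraries. The p-values come from edgeR (quasi-likelihood, two-sided) with Benjamini-Hochberg adjustment over all genes tested, and a gene was called at an adjusted p under 0.05.

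Library totals ranged from 22516424 to 34533316 counts, so that 3 counts, taken as the floor, corresponded to between 0.0869 and 0.133 CPM. This floor covers counting error only, as the reads carried no molecular identifiers. Aim2 was 4.72-fold lower in Aim2-/- than in WT Tn cells (adjusted p = 1.05e-05) and 4.35-fold lower in Treg cells (adjusted p = 0.00013), with no overlap between the groups. The summed level of 10 T cell markers was between 5623 and 6932 CPM in Tn and between 2537 and 2916 CPM in Treg libraries, that of 6 B cell markers reached at most 3.12 CPM and that of 8 myeloid markers at most 9.13 CPM. Foxp3 was between 1.98 and 4.02 CPM in Tn and between 278 and 573 CPM in Treg libraries, and the summed level of 7 naïve T cell markers fell from between 4485 and 6191 CPM to between 667 and 1083 CPM.

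A group of 3 Treg libraries stood apart. On the first principal component of the 8 Treg libraries, which carried 43.1% of the variance of 13212 genes with the 9 genes left out, WT replicate 4 was at 27.1 and Aim2-/- replicates 3 and 4 were at 30 and 37.2, while the other 5 libraries were between -29.9 and -7.28. Foxp3 was between 278 and 329 CPM in these 3 libraries and between 496 and 573 CPM in the other 5. The culture and Treg genotype results of the 9 genes are therefore also given without these 3, and the part this split played in them was not tested. Among the Tn libraries, WT replicates 3 and 4 and Aim2-/- replicate 3 were at 42.8, 26.2 and 19.5 on the first component and the others at 1.89 or below.

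Promoter sequence from RefSeq (GRCm38.p6, the build of the data) was matched for 7 of the 9 genes, in 8 windows, since Entpd1 has 2. The 250 bases before the start of transcription are shown, 5′ to 3′ on the strand of the gene, for the 4 windows that overlapped no exon of GENCODE M21. Their genes were among the 37.7% of genes called higher in WT culture, with the direction of Ebi3 fixed by the filter on low counts. The windows of Nrp1 and Entpd1 lie in introns of longer GENCODE transcripts. Capitals mark matches, on either strand, to short motifs of factors that act downstream of the T cell receptor, IL-2 or TGF-beta, namely GGAAA (core of NFAT sites), CAGAC (core of SMAD sites), TGACG (part of a cyclic AMP response element), TGANTCA (AP-1) and TTCNNNGAA (STAT), and also to the forkhead motif TGTTTAC. The TATA box was searched as TATAAA. A TTCNNNGAA match can overlap a GGAAA match, and no other motif holds the letters of another.
Nrp1, chr8:128358823-128359072, + strand: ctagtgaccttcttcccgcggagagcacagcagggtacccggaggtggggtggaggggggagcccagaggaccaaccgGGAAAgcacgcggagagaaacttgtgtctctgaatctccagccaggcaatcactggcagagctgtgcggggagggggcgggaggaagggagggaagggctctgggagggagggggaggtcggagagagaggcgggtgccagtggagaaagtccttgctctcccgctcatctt
Ebi3, chr17:55952373-55952622, + strand: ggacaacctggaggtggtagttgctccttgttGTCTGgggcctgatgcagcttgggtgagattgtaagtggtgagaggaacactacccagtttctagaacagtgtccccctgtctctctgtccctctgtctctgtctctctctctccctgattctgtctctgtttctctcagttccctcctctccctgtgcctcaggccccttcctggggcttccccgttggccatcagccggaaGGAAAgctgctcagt
Gpr83, chr9:14859960-14860209, + strand: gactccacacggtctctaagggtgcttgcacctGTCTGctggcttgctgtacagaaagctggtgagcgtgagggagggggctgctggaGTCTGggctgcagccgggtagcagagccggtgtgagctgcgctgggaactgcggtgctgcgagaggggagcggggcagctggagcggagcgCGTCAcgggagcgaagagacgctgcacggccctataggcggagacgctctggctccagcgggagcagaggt
Entpd1, chr19:40659520-40659769, + strand: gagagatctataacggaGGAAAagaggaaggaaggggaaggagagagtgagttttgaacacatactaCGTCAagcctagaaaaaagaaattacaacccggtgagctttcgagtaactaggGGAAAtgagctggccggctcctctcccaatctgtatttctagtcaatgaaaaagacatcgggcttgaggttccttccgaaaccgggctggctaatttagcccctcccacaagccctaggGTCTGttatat

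CAGAC was found in 6 of the 8 windows and in 42.2% of the 32851 RefSeq windows of this length, GGAAA in 4 of the 8 and in 55.6% of all, and TGACG in 3 of the 8 and in 17.8% of all. In the window of Nrp1 the only match was GGAAA, 172 bases before the start. Gpr83 had CAGAC 217 and 162 bases and TGACG 71 bases before the start, all on the other strand, and Ebi3 had GGAAA 15 bases before it and CAGAC on the other strand 218 bases before it. The AP-1, STAT, forkhead and TATA motifs were found in 0 of the 8 windows and in 6.75%, 7.02%, 3.17% and 12.4% of all windows, which says only that these letters are not in these windows. A match is a description of the sequence and not a measured binding site.

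The plot of levels by library shows all 9 genes.

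**Figure D1:**
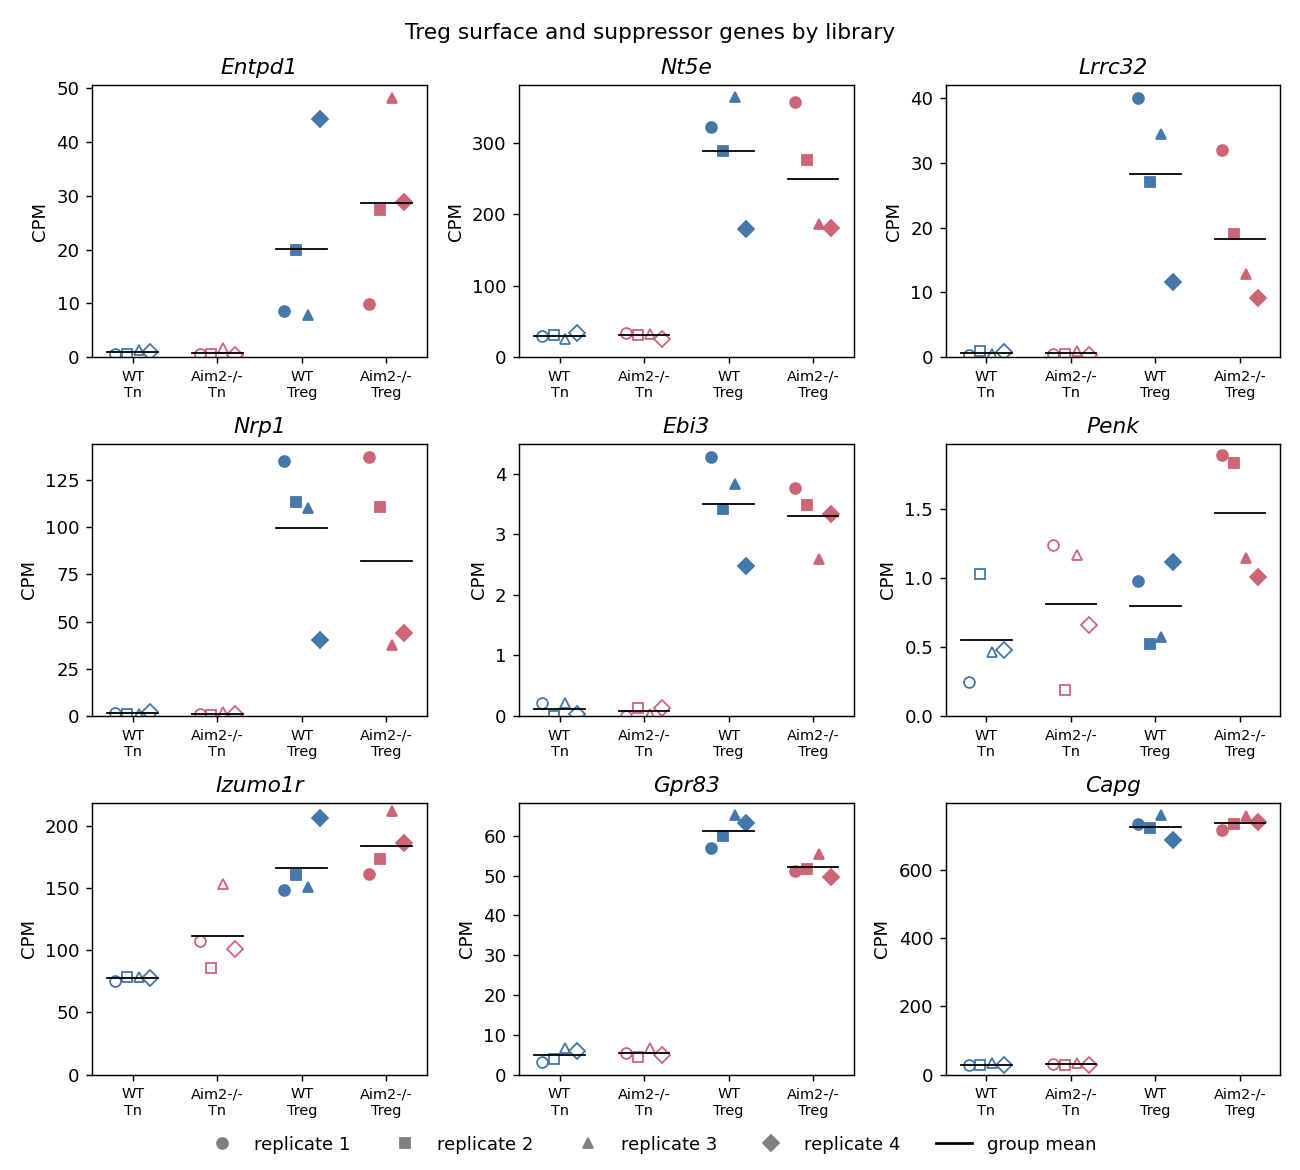
CPM of each gene (linear y axis from 0, own scale per panel) in the 4 groups, with 1 point per library (open for Tn, filled for Treg, blue for WT, red for Aim2-/-, shape for the replicate number) and a line at the group mean. Within each genotype, Tn and Treg points do not overlap for 8 genes, of which Ebi3 had its direction fixed by the filter on low counts. Penk points overlap, and WT replicate 4 and Aim2-/- replicates 3 and 4 are the lowest Treg points for Nrp1, Lrrc32 and Nt5e.

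Culture was compared with the naïve state separately in each genotype, and the 2 comparisons share no libraries. In WT cells 8 of the 9 genes were called higher and 0 lower, beside 37.7% of 13675 genes called higher and 39.2% called lower. In Aim2-/- cells the same 8 genes were called higher and 0 lower, beside 39.1% of 13713 genes called higher and 40.2% called lower. Ebi3 had 10 or more counts only in Treg libraries, so that the filter on low counts fixed its direction. Without it and the other genes that reached this minimum in 1 state only, 7 of 8 were called higher in each genotype, beside 36.2% of 12742 genes in WT and 38.7% of 12625 genes in Aim2-/- cells. For these 7 genes every Treg library was above every Tn library of the same genotype. This held for 37.2% of all genes tested in WT and 37.3% in Aim2-/- cells (35.7% and 37.5% were entirely lower). Those shares include the genes that reached the minimum in 1 state only. The 7 genes thus belonged to the large share of the transcriptome that moved within 2 days.

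**Figure D2:**
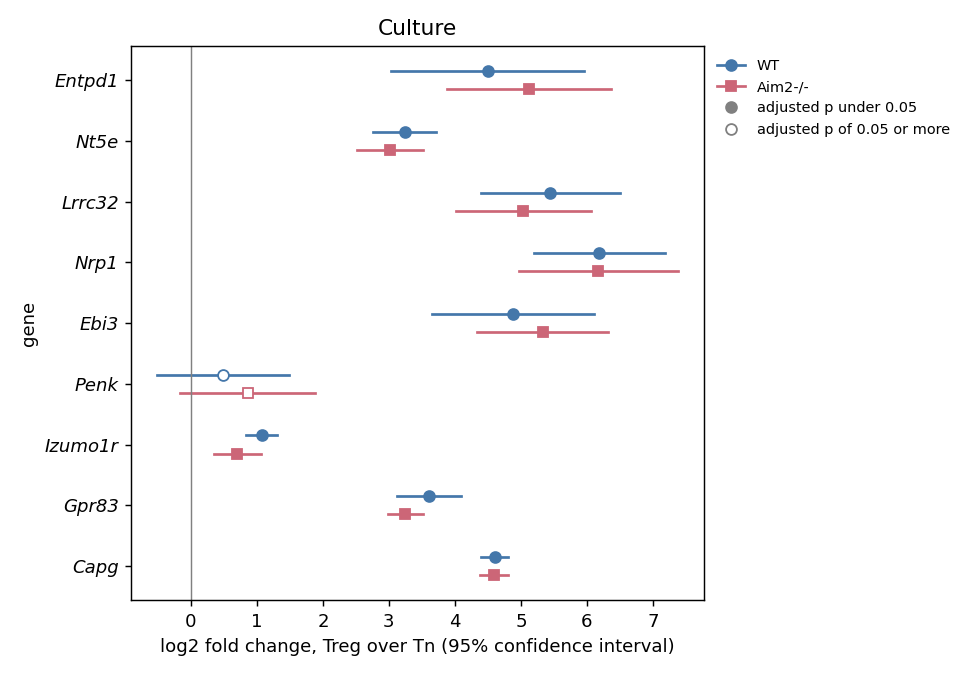
Log2 fold change of each gene, Treg over Tn (x axis), with its 95% confidence interval, in WT (blue circles) and Aim2-/- (red squares) cells, and filled symbols for an adjusted p under 0.05. Nrp1 lies farthest to the right at 6.18 and 6.17, Izumo1r is at 1.07 and 0.70, and both intervals of Penk span 0.

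Entpd1 (chromosome 19, 40612366 to 40741602, + strand) encodes the enzyme that starts the breakdown of extracellular ATP. In Tn cells it was at 0.656, 0.593, 1.35 and 0.886 CPM in WT replicates 1 to 4 and at 0.525, 0.567, 1.76 and 0.460 CPM in Aim2-/- replicates 1 to 4. After culture Entpd1 was at 8.60, 19.8, 7.82 and 44.3 CPM in WT and at 9.85, 27.4, 48.2 and 28.9 CPM in Aim2-/- replicates 1 to 4. The genotypes overlapped in both states, and within each genotype the Treg libraries differed by 5.67-fold (WT) and 4.90-fold (Aim2-/-). Entpd1 was 22.6-fold higher after culture in WT (log2 4.50, SE 0.65, adjusted p = 0.000153) and 34.7-fold higher in Aim2-/- cells (log2 5.12, SE 0.56, adjusted p = 9.75e-06). Without WT Treg replicate 4 the WT value was 14.1-fold, and without Aim2-/- Tn replicate 3, where Entpd1 had 47 counts against 14 to 18 in the others of that group, the Aim2-/- value was 52.4-fold. Without Aim2-/- Treg replicates 3 and 4 it was 23.6-fold. The genes whose levels were most like that of Entpd1 were Carmil1 and Tbx21, which encodes the T helper 1 factor T-bet, with root mean square differences of 0.358 and 0.373 in centred log2 CPM over the 16 libraries among 14668 genes compared. Carmil1 was below the floor in every Tn library, at no more than 0.0751 CPM, so its likeness depends on the count added before the log2. Tbx21 was at 127, 134 and 137 CPM in the 3 Treg libraries that stood apart and between 14.7 and 75.3 CPM in the other 5. Of the small genes measured within it on the same strand, Gm8783 had the highest level, with a mean of at most 0.143 CPM of the library total in any group.

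Nt5e (chromosome 9, 88327197 to 88372092, + strand) encodes the enzyme that makes adenosine from AMP, and naïve cells already carried its mRNA. In Tn cells it was at 29.9, 30.4, 25.5 and 33.5 CPM in WT and at 33.7, 31.1, 32.5 and 25.1 CPM in Aim2-/- replicates 1 to 4. After culture it was at 323, 288, 364 and 179 CPM in WT and at 357, 275, 186 and 181 CPM in Aim2-/- replicates. The lowest 3 Treg values were those of the 3 libraries that stood apart, where Entpd1 was among the highest. Culture raised Nt5e 9.46-fold in WT (log2 3.24, SE 0.21, adjusted p = 5.72e-07) and 8.11-fold in Aim2-/- cells (log2 3.02, SE 0.22, adjusted p = 4.84e-07), and 11.0-fold and 10.7-fold without the libraries that stood apart. Its level was most like that of Atp6v0a1, a subunit of the vacuolar proton pump (root mean square difference 0.224), followed by Ssx2ip (0.244).

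Both ectoenzyme genes rose in culture, whereas other listed genes of purine handling did not move one way. The list also holds enzymes that act inside the cell, such as Entpd5 and Entpd4. Of 21 such genes listed, 19 were tested in WT cells, of which 7 were called higher and 10 lower, with a median log2 fold change of -0.94 beside -0.05 over all genes. The same counts, 7 higher and 10 lower of 19, were found in Aim2-/- cells. Without Adora2b and P2ry14, which reached 10 counts in 1 state only, the counts were 6 higher and 9 lower of 17 in both genotypes. Slc29a1, an equilibrative nucleoside transporter, rose 8.57-fold (adjusted p = 8.9e-09) from 35.8 to 314 CPM in WT cells, while Slc28a2, which takes up nucleosides together with sodium, was 11.6-fold lower (adjusted p = 1.6e-08), from 234 to 20.6 CPM. The expected counts of Slc29a1 and Slc28a2 were not whole numbers in any of the 16 libraries, so reads may be shared with other genes. Entpd5, a nucleotidase of the endoplasmic reticulum, was 2.43-fold lower (adjusted p = 7.27e-07).

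Lrrc32 (chromosome 7, 98489283 to 98502181, + strand), the docking protein of latent TGF-beta, was at 0.380, 0.909, 0.422 and 0.818 CPM in WT Tn replicates 1 to 4 and at 0.487, 0.472, 0.901 and 0.361 CPM in Aim2-/- Tn replicates. Treg cells carried Lrrc32 at 40.1, 27.1, 34.6 and 11.6 CPM in WT and at 32.1, 19.0, 12.9 and 9.10 CPM in Aim2-/- replicates. Again the 3 libraries that stood apart had the 3 lowest values. Lrrc32 was 43.5-fold higher after culture in WT (log2 5.44, SE 0.47, adjusted p = 4.19e-06) and 32.8-fold higher in Aim2-/- cells (log2 5.04, SE 0.46, adjusted p = 2.38e-06), and 53.8-fold and 48.0-fold higher without those libraries. The genes most like it were Src, a tyrosine kinase, at 0.406, and Haao, an enzyme of tryptophan breakdown, at 0.413 root mean square difference.

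Nrp1 (chromosome 8, 128358604 to 128503363, + strand), whose promoter window is printed above, had the largest fold change of the 9 genes in both genotypes. In Tn cells it was at 1.31, 0.909, 1.14 and 1.94 CPM in WT and at 0.825, 0.725, 1.95 and 1.08 CPM in Aim2-/- replicates 1 to 4. In WT Treg replicates 1 to 4 it reached 135, 113, 110 and 40.3 CPM, and in the Aim2-/- replicates 137, 111, 37.5 and 43.7 CPM. The Treg values fell into 2 ranges, from 37.5 to 43.7 CPM in the 3 libraries that stood apart and from 110 to 137 CPM in the other 5, and both genotypes had libraries in each range. Nrp1 was 72.8-fold higher after culture in WT (log2 6.18, SE 0.44, adjusted p = 1.25e-06) and 71.9-fold higher in Aim2-/- cells (log2 6.17, SE 0.54, adjusted p = 1.76e-06). Without the libraries that stood apart it was 89.9-fold and 113-fold higher. Agap1 and Fsd1l were the genes most like it (0.424 and 0.426). Both were below the floor in every Tn library, at no more than 0.0751 and 0.0682 CPM. Their likeness to Nrp1 therefore depends on the prior count, which is added before the log2 is taken. In these bulk samples, fewer cells that carry an mRNA and less of it per cell cannot be told apart.

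Among 13 genes that make latent TGF-beta or release it, 6 were tested in WT cells and 4 were called higher and 2 lower (median log2 1.35), with the same counts in Aim2-/- cells (3 and 2 of 5 without Thbs1, which reached 10 counts only in Treg cells). Tgfb1 itself rose 1.82-fold (adjusted p = 4.78e-06), from 102 to 190 CPM in WT cells. Itgav, an integrin chain, rose 3.56-fold (adjusted p = 4.07e-08). Of the chains with which it can free TGF-beta, only Itgb8 and Itgb6 were looked at. They were near or at 0, with 0 to 9 counts of Itgb8 and 0 counts of Itgb6 in each library. Nrros, an anchor of latent TGF-beta named here after its values were seen, was 3.06-fold lower (adjusted p = 7.25e-05). Furin, the protease that cuts the TGF-beta precursor, rose 5.12-fold (adjusted p = 2.86e-05). Of 17 neuropilin ligands, plexins and partners, 12 were tested, and 6 were called higher and 4 lower in WT and 8 and 4 in Aim2-/- cells (medians 0.46 and 0.54). Sema4a, a semaphorin, was 36.3-fold lower after culture (adjusted p = 2.97e-08), from 166 to 4.66 CPM, and Gipc1, an adaptor that binds the tail of neuropilin-1, was 2.16-fold higher (adjusted p = 8.3e-06).

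Ebi3 (chromosome 17, 55952640 to 55957022, + strand), a secreted cytokine subunit, was close to the floor in Tn cells, with 6, 0, 5 and 1 counts in WT and 0, 4, 1 and 4 counts in Aim2-/- replicates 1 to 4. In Treg cells it was at 4.28, 3.42, 3.83 and 2.48 CPM (67 to 127 counts) in WT and at 3.77, 3.48, 2.59 and 3.34 CPM (77 to 100 counts) in Aim2-/- replicates. The fitted fold changes were log2 4.88 (SE 0.55, adjusted p = 2.17e-05) in WT and 5.33 (SE 0.45, adjusted p = 6.2e-07) in Aim2-/- cells, and at so few Tn counts they depend on the prior count. Ebi3 passed the filter on low counts only through its Treg libraries, so that it had to differ, and it was not tested once any 1 Treg library was left out. Ebi3 overlaps Gm16712 on the opposite strand, which averaged 0.171 and 0.188 CPM in Tn and 0.845 and 0.804 CPM of the library total in Treg cells of WT and Aim2-/- mice, and the expected counts of Ebi3 were not whole numbers in 8 libraries. Il12a, the partner of Ebi3 in IL-35, was between 0.236 and 0.706 CPM in Treg cells, and Il27, its partner in IL-27, reached at most 0.068 CPM in any library, below the floor. These partners were singled out for their role, after their values were seen.

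Of 9 IL-12 family chains and receptors, 5 were tested in WT cells, of which 3 were called higher and 2 lower (2 and 2 of 4 without Il12a, which reached 10 counts only in Treg cells). Il12rb1, a receptor chain for IL-12 and IL-23, rose 19.5-fold (adjusted p = 3.37e-08), although its reads were split between 2 entries of the annotation. The receptor chains Il27ra and Il6st, which bind IL-27 together, were 3.19-fold (adjusted p = 1.55e-06) and 3.36-fold lower (adjusted p = 4.73e-06). In Aim2-/- cells 4 were tested, with 2 called higher and 2 lower. The genes most like Ebi3 were Gins1, a DNA replication factor, and Arhgap21 (0.447 and 0.507).

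Penk (chromosome 4, 4133531 to 4138819, - strand), the enkephalin precursor, was the 1 gene that was not called in culture. It was at 0.242, 1.03, 0.465 and 0.477 CPM in WT and at 1.24, 0.189, 1.16 and 0.657 CPM in Aim2-/- Tn replicates 1 to 4, with 6 to 33 counts per library. In Treg cells it was at 0.978, 0.521, 0.573 and 1.11 CPM in WT and at 1.89, 1.83, 1.15 and 1.00 CPM in Aim2-/- replicates. Tn and Treg libraries overlapped in both genotypes. The difference was log2 0.49 (95% confidence interval -0.51 to 1.49, adjusted p = 0.333) in WT and 0.86 (-0.16 to 1.88, adjusted p = 0.11) in Aim2-/- cells. Without WT Treg replicate 4 the WT value was log2 0.34 (adjusted p = 0.538). Without Aim2-/- Treg replicates 3 and 4 Penk was called higher in Aim2-/- cells, at log2 1.27 with an adjusted p of 0.0448. Over 15 alternatives in WT cells its adjusted p was between 0.065 and 0.648. The genes most like it, Chst11 and Inppl1, were less alike (0.562 and 0.578) than those of any other of the 9 genes.

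Of 13 genes for opioid precursors, their processing enzymes and receptors, 4 were tested in WT cells, and 1 was called higher and 2 lower, with the same counts in Aim2-/- cells. Without the genes that reached 10 counts in 1 state only, 1 was called higher and 1 lower of 3 in WT, and 0 higher and 1 lower of 2 in Aim2-/- cells. The 1 called higher in WT was Cpd, a carboxypeptidase that trims peptides in the secretory pathway. Cpd was between 0.273 and 0.989 CPM (8 to 25 counts) in WT Tn and between 372 and 472 CPM in WT Treg cells. It passed the filter on low counts only through its Treg libraries, so this count also rests on the filter. Pcsk1, a convertase of neuropeptide precursors, had 22 to 38 counts in WT Tn and 1 to 4 counts in WT Treg libraries, so that the filter fixed its direction.

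Izumo1r (chromosome 9, 14885814 to 14903949, - strand) had the highest level per kilobase of exon of the 9 genes in Tn cells, at 33.5 ± 0.729 CPM per kilobase in WT and 48.2 ± 12.6 in Aim2-/- cells (SD, n = 4). It was at 75.3, 78.9, 78.9 and 77.3 CPM in WT and at 108, 86.0, 154 and 101 CPM in Aim2-/- Tn replicates 1 to 4. In Treg cells it was at 148, 161, 151 and 206 CPM in WT and at 162, 174, 212 and 187 CPM in Aim2-/- replicates. Its rise was the smallest of the 8, at 2.10-fold in WT (log2 1.07, SE 0.10, adjusted p = 8.15e-06) and 1.63-fold in Aim2-/- cells (log2 0.70, SE 0.16, adjusted p = 0.002), and 1.996-fold and 1.56-fold without the libraries that stood apart. Those 3 libraries held the 3 highest Treg values, the opposite order to Nrp1, Lrrc32 and Nt5e. The genes most like it were Uqcrq and Pam16 (0.128 and 0.130), which encode a subunit of respiratory complex III and a part of the mitochondrial import motor.

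All 3 tested genes of the 5 listed folate receptors and carriers were called higher in each genotype. Slc19a1, the reduced folate carrier, rose 9.10-fold (adjusted p = 3.34e-08) from 16.7 to 155 CPM in WT cells, and Slc46a1, the proton-coupled folate transporter, rose 5.53-fold (adjusted p = 1.23e-05). Slc25a32, the mitochondrial folate carrier, was 1.85-fold higher (adjusted p = 8.37e-05), with reads split between 2 entries of the annotation.

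Gpr83 (chromosome 9, 14860210 to 14870789, + strand) lies next to Izumo1r. Their 3′ ends face each other across 15024 bases with no other annotated gene between them. Gpr83 was at 3.14, 3.91, 6.67 and 5.999 CPM in WT and at 5.47, 4.54, 6.72 and 5.06 CPM in Aim2-/- Tn replicates 1 to 4. In Treg cells it was at 56.9, 59.9, 65.2 and 63.2 CPM in WT and at 51.2, 51.7, 55.5 and 49.7 CPM in Aim2-/- replicates 1 to 4. It did not follow the 3 libraries that stood apart, and every Aim2-/- Treg value was below every WT Treg value. The rise was 12.2-fold in WT (log2 3.61, SE 0.22, adjusted p = 2.86e-07) and 9.51-fold in Aim2-/- cells (log2 3.25, SE 0.12, adjusted p = 9.87e-10), and 12.4-fold and 9.82-fold without the libraries that stood apart. The genes most like it were Brca2 and Tipin (0.177 and 0.188), which act in DNA repair and at the replication fork.

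Capg (chromosome 6, 72544391 to 72562983, + strand) was the most abundant of the 9 genes in Treg cells, at 287 ± 12.3 CPM per kilobase of exon in WT and 292 ± 6.61 in Aim2-/- cells (SD, n = 4). WT Tn replicates 1 to 4 had 28.3, 27.2, 33.7 and 27.9 CPM, and the Aim2-/- replicates had 30.1, 27.0, 34.7 and 29.7 CPM. Culture brought Capg to 736, 723, 761 and 687 CPM in WT and to 717, 734, 757 and 741 CPM in Aim2-/- replicates. The 8 Treg libraries lay closer together than for any other of the 9 genes. Capg was 24.3-fold higher after culture in WT (log2 4.60, SE 0.09, adjusted p = 5.1e-10) and 24.1-fold higher in Aim2-/- cells (log2 4.59, SE 0.10, adjusted p = 1.36e-11), and 25.6-fold and 24.8-fold without the libraries that stood apart. Tacc3, a mitotic spindle protein, was most like it (0.127).

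Other genes of the gelsolin family and actin cappers moved in both directions, with 6 called higher and 4 lower of 12 tested in WT and 4 and 5 of 11 in Aim2-/- cells (5 and 3 of 10, and 4 and 4 of 10, without the genes that reached 10 counts in 1 state only). Gsn, gelsolin itself, was 10.7-fold lower after culture (adjusted p = 1.55e-08), from 47.6 to 4.54 CPM. Avil, advillin, had 48 to 85 counts in WT Tn and 2 to 5 counts in WT Treg libraries, so that the filter fixed its direction. Cfl1, which severs actin filaments, was 1.46-fold higher (adjusted p = 6.26e-06). Of 10 further genes of a Treg signature that the study takes from earlier single-cell work, 9 were tested. Of these, 7 were called higher in WT and 8 in Aim2-/- cells, with 0 lower (medians 3.43 and 3.49), beside 37.7% and 39.1% of all genes called higher. In WT it was 6 of 8, beside 36.2%, without Itgae, which reached 10 counts only in Treg cells. The gene not tested, Klrg1, went the other way, with 1 to 20 counts in Tn and 0 counts in each Treg library. The reads of Ctla4 were split between 2 entries of the annotation. Il2ra, a subunit of the IL-2 receptor, was at 3.46 CPM in WT Tn and 1451 CPM in WT Treg cells (adjusted p = 5.1e-10).

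Per kilobase of exon, the order of the 9 genes in WT Tn cells was Izumo1r, Capg, Nt5e, Gpr83, Penk, Entpd1, Nrp1, Lrrc32 and Ebi3, from 33.5 to 0.098 CPM per kilobase, and the last 4 lay within their SDs of each other. In WT Treg cells it was Capg, Izumo1r, Nt5e, Gpr83, Nrp1, Lrrc32, Entpd1, Ebi3 and Penk, from 287 to 0.487 CPM per kilobase. The ranges of mean ± SD overlapped for Gpr83 and Nrp1, at 12.0 ± 0.719 and 10.2 ± 4.21 (SD, n = 4). They also overlapped for Lrrc32, Entpd1 and Ebi3, at 6.04 ± 2.64, 3.61 ± 3.05 and 3.04 ± 0.665. The genes were measured in the same libraries, and their order within each library was not tested.

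The plot of the Treg libraries sets the spread of the 9 genes beside that of Foxp3.

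**Figure D3:**
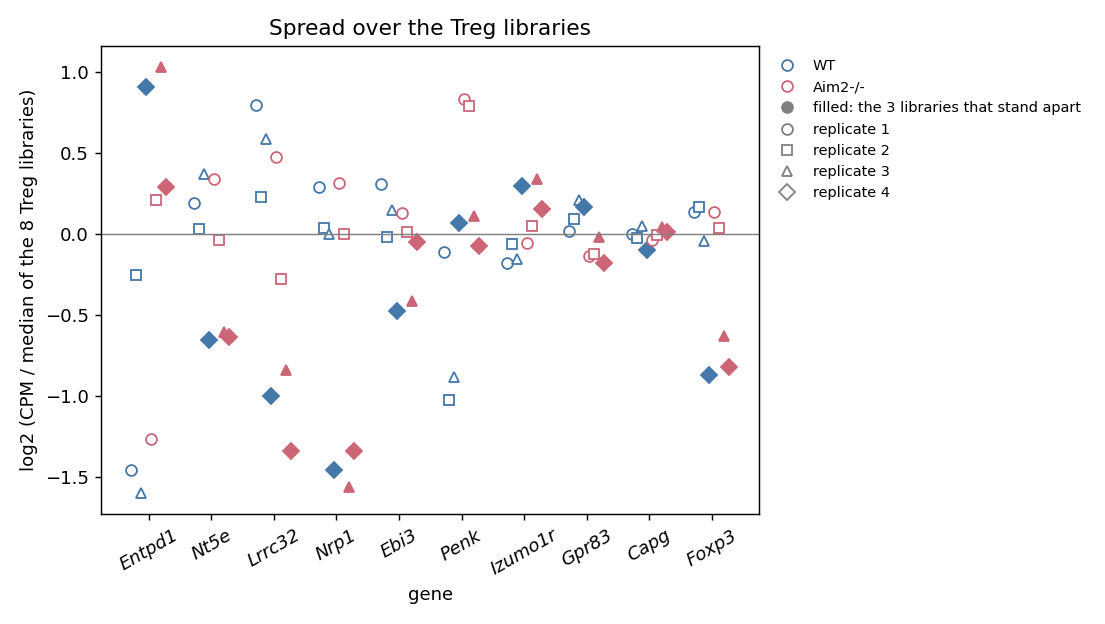
Log2 of the CPM in each of the 8 Treg libraries over the median of the 8 (y axis) for the 9 genes and Foxp3, with shape for the replicate number, blue for WT and red for Aim2-/-, and filled symbols for WT replicate 4 and Aim2-/- replicates 3 and 4. The filled symbols are lowest for Nt5e, Lrrc32, Nrp1, Ebi3 and Foxp3, highest for Entpd1 and Izumo1r, and mixed with the others for Gpr83 and Capg.

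Highest over lowest, the 8 Treg libraries differed by 1.11-fold for Capg, 1.31-fold for Gpr83, 1.43-fold for Izumo1r, 1.73-fold for Ebi3, 2.03-fold for Nt5e, 3.62-fold for Penk, 3.67-fold for Nrp1, 4.41-fold for Lrrc32 and 6.17-fold for Entpd1. Foxp3 differed by 2.06-fold, in the same libraries as Nt5e, Nrp1 and Lrrc32. For Entpd1 the values formed a gradient, in which WT replicate 2 and Aim2-/- replicate 2, at 19.8 and 27.4 CPM, lay between replicates 1 of both genotypes and WT replicate 3, at 7.82 to 9.85 CPM, and the 3 libraries that stood apart, at 28.9 to 48.2 CPM. The 4 plasmacytoid dendritic cell markers, of which T cells also express some, summed to 72.0 to 76.7 CPM in the 3 libraries and 35.9 to 52.6 CPM in the other 5. Most of this sum was Bst2, with means of 44.4 CPM in WT and 56.0 CPM in Aim2-/- Treg cells, and Siglech had no counts in the Aim2-/- Treg libraries. The part of these markers in the values above was not tested.

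The genotype comparison asked whether Aim2 loss changed these genes before or after culture. In Tn cells 0 of the 8 genes tested were called by edgeR, beside 0.134% of 13441 genes called higher and 0.0967% called lower, and Ebi3 was too low to be tested. With limma-voom and DESeq2 the count was also 0, and 1 gene, Izumo1r, had an unadjusted p under 0.05, as had 10.3% of all genes. Izumo1r was higher in every Aim2-/- than in every WT Tn library, as for 3.36% of all genes (3.59% were lower in every one), at 112 ± 29.1 against 77.6 ± 1.69 CPM (SD, n = 4). The difference was 1.45-fold (log2 0.53, 95% confidence interval 0.20 to 0.87, edgeR adjusted p = 0.345), and 1.27-fold without Aim2-/- replicate 3 (adjusted p = 0.579). The summed levels of 6 B cell markers, between 1.54 and 2.15 CPM in the WT libraries but between 2.44 and 3.12 CPM in the Aim2-/- Tn libraries, and of 4 erythroid markers, at 0.198 to 1.52 CPM and 1.58 to 2.44 CPM, also did not overlap, with the B cell gene Ms4a1 at 0 in both groups. Nor did the sums of 4 plasmacytoid dendritic cell markers, at 45.8 to 54.6 and 56.1 to 95.1 CPM. Most of these last sums was Bst2, with means of 45.1 CPM in WT and 63.75 CPM in Aim2-/- Tn cells. Tcf4 went the other way, at 2.85 and 1.95 CPM, and the median of the 3 tested was log2 -0.53. The part of all these markers in the Izumo1r difference was not tested.

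**Figure D4:**
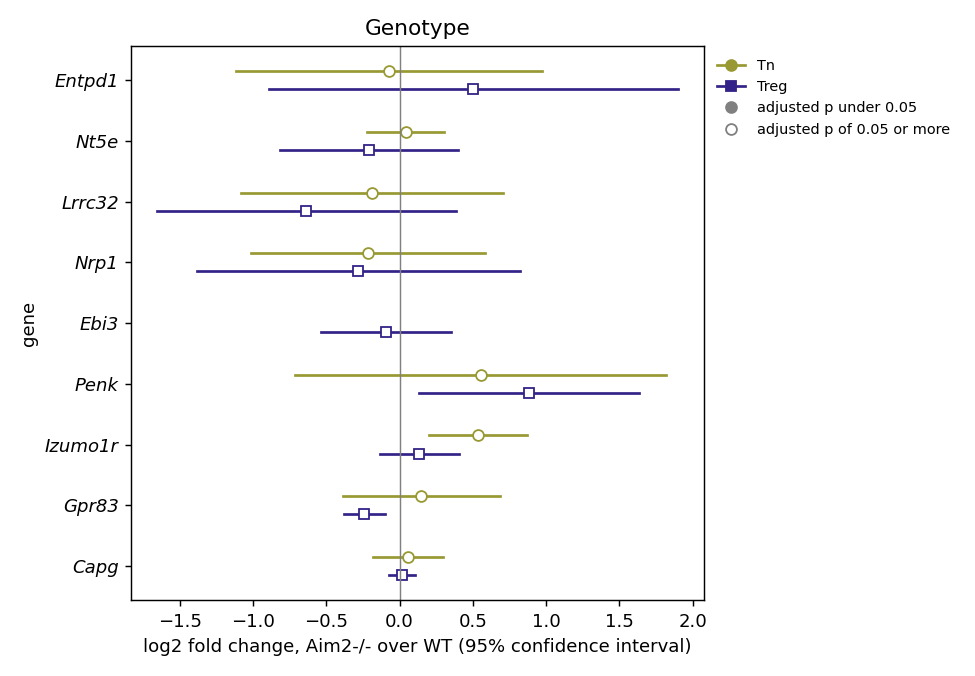
Log2 fold change of each gene, Aim2-/- over WT (x axis), with its 95% confidence interval, in Tn (olive circles) and Treg (dark blue squares) cells, where open symbols mark an adjusted p of 0.05 or more and Ebi3 was not tested in Tn cells. All symbols are open, and the intervals of Izumo1r in Tn cells and of Gpr83 and Penk in Treg cells lie to 1 side of 0.

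In Treg cells 0 of the 9 genes were called by edgeR, limma-voom or DESeq2, beside 0.129% of 13221 genes called higher and 0.0908% called lower by edgeR, and 2 genes, Gpr83 and Penk, had an unadjusted p under 0.05, as had 2.31% of all genes. The mean of Gpr83 was 61.3 ± 3.66 CPM over the WT and 52.0 ± 2.47 CPM over the Aim2-/- Treg libraries (SD, n = 4), and the groups did not overlap, as for 0.968% of all genes in this direction and 1.29% in the other. This 1.18-fold lower level (log2 -0.24, 95% confidence interval -0.38 to -0.10, edgeR adjusted p = 0.789) was log2 -0.24 also without the libraries that stood apart. For Penk the WT mean was 0.796 ± 0.293 CPM and the Aim2-/- mean 1.47 ± 0.457 CPM (log2 0.89, 95% confidence interval 0.13 to 1.64, edgeR adjusted p = 0.999), and the groups overlapped. Without the libraries that stood apart the difference of Penk was log2 1.43 (adjusted p = 0.684).

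For the other genes the intervals of the genotype difference in Treg cells tell what the data leave possible. Capg had the narrowest, at log2 0.02 (-0.07 to 0.11), and Izumo1r was at 0.14 (-0.13 to 0.41). Lrrc32 was at -0.64 (-1.65 to 0.38), Entpd1 at 0.50 (-0.89 to 1.90), Nrp1 at -0.28 (-1.38 to 0.82) and Nt5e at -0.21 (-0.82 to 0.40). Ebi3 was at -0.09 (-0.54 to 0.35). WT had 1 and Aim2-/- 2 of the libraries that stood apart, and without these libraries the differences were -0.41 for Lrrc32, 0.61 for Entpd1, 0.05 for Nrp1, -0.04 for Nt5e, 0.13 for Izumo1r, -0.09 for Ebi3 and -0.03 for Capg. Entpd1 was at 1.24 without WT replicate 4 alone and at 0.12 without Aim2-/- replicate 3 alone. In Tn cells the differences of Nt5e, Gpr83 and Capg were 0.04 (-0.22 to 0.31), 0.15 (-0.39 to 0.69) and 0.06 (-0.18 to 0.30) on the log2 scale, while Entpd1 was at -0.07 (-1.12 to 0.97), Nrp1 at -0.22 (-1.01 to 0.58), Lrrc32 at -0.19 (-1.08 to 0.70) and Penk at 0.55 (-0.71 to 1.82).

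Whether the culture effect differed between genotypes was tested as an interaction on all 16 libraries. For 0 of the 9 genes was the edgeR interaction called, and 0 had an unadjusted p under 0.05 (3.49% of all genes had), beside 0.0205% of 14669 genes called (limma-voom and DESeq2 also called 0 of the 9). The interaction was log2 -0.39 (95% confidence interval -0.83 to 0.05) for Izumo1r, -0.38 (-0.90 to 0.14) for Gpr83 and -0.03 (-0.27 to 0.21) for Capg, while that of Entpd1 ran from -1.49 to 2.67.

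Among the listed genes of the same pathways, 1 passed the test between genotypes. Entpd4, a Golgi nucleotidase related to Entpd1, was 1.75-fold higher in Aim2-/- Tn cells (36.9 ± 4.58 against 21.2 ± 2.05 CPM, SD, n = 4, adjusted p = 0.0178) and 1.73-fold higher in Aim2-/- Treg cells (34.2 ± 4.14 against 19.7 ± 1.13 CPM, adjusted p = 0.0145). It has a close copy, Entpd4b, with which it can share reads, so its level is uncertain. Plxnd1, a plexin, was 1.79-fold lower in Aim2-/- Tn cells with an adjusted p of 0.0687.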

How the data were processed

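RNA of 16 mouse CD4+ T cell libraries was analysed, 4 in each of 4 groups, which were assigned with their replicate numbers from the deposited titles. The authors prepared stranded mRNA libraries, mapped single-end reads to GRCm38 with STAR and deposited 1 table per library of expected counts from RSEM, per gene and not normalized. Versions and the strand setting are not given in the sources used here, and the numbers in some deposited table names differ from those in the titles, which were used. Expected counts were rounded. A gene was tested where 4 or more libraries of a fit held 10 or more counts of it, with edgeR 4.0.16 (R 4.3.3, TMM, robust quasi-likelihood F test, two-sided) on the 8 libraries compared, or on all 16 for the interaction, with Benjamini-Hochberg adjustment. CPM per kilobase uses the summed exon length of GENCODE M21, which held 98.87% of the 53090 genes. Likeness between genes is the root mean square difference of centred log2 CPM (prior count 2). For genes near the floor in Tn cells it depends on this prior count. The genes, gene lists and tests were chosen with earlier results of these data known. Named genes are all 9, Aim2, Foxp3, the 2 genes most like each of the 9 (1 of them is not reported here), and, from each list, at most the 3 tested genes with the smallest p in the WT culture comparison and at most the 2 in each genotype comparison. Alternatives were limma-voom (limma 3.58.1), DESeq2 1.42.0, RLE factors, library totals, no filter, the replicate number as a block, all 16 libraries in 1 fit, leaving out each library, splits of replicates 1 and 2 against 3 and 4, and, chosen after seeing the data, leaving out the 3 Treg libraries that stand apart. Culture counts without the genes that reached 10 counts in 1 state only were also added after seeing the data. The test was also run on simulated counts with known changes. These were drawn independently for each library, without a split such as that of the Treg libraries.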

Additional observations from a re-analysis of the deposited data

Results flagged for a closer look

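Entpd1 in Aim2-/- Tn replicate 3, at 1.76 CPM, lay far above the other 3 libraries of its group, at 0.460 to 0.567 CPM, by Dixon's test for 4 samples at the 95% level. It was the only one found among 36 gene and group combinations tested, where chance alone gives about 1 in 20. The same library held the highest value of its group for Izumo1r, Gpr83, Nrp1, Lrrc32 and Capg as well, which makes 6 of the 9 genes.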

How the results depend on the processing

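The number of the 9 genes called kept within 1.5 times the reported value under every alternative run, in all 5 comparisons. Of 791 values of single genes under an alternative, 757 kept their direction and their side of the threshold, 33 changed sign and 1 newly passed, which was Penk in Aim2-/- culture without the Treg libraries that stand apart (log2 1.27). All sign changes were in genotype differences or interactions that were not called. For replicates 3 and 4 alone in Tn cells, Nt5e was at log2 -0.0487 and Gpr83 at -0.12. In Treg cells Capg was at -0.006 with library totals, at -0.0097 for replicates 1 and 2 alone and at -0.0324 without the libraries that stand apart, Nt5e was at 0.0485 for replicates 1 and 2 alone, and Nrp1 was at 0.0487 (interaction 0.30) without those libraries. Their cause was not tested. Leaving out 1 library at a time, the Tn differences ranged from -0.031 to 0.13 for Nt5e, -0.73 to 0.20 for Entpd1, -0.0312 to 0.32 for Gpr83, -0.59 to 0.0175 for Nrp1, -0.51 to 0.0269 for Lrrc32 and -0.0065 to 0.13 for Capg, the Treg differences from 0.12 to 1.24 for Entpd1, -0.23 to 0.0182 for Ebi3 and -0.0107 to 0.0368 for Capg, and the interactions from -0.40 to 0.32 for Nrp1, -0.0863 to 0.81 for Ebi3, -0.14 to 0.61 for Penk and -0.0922 to 0.0291 for Capg. In the culture comparisons, 7 of 8 genes tested were called without any 1 Treg library, since Ebi3 then had too few libraries at the count minimum.

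With the replicate block, 8 and 8 of the 9 genes were called in culture and 0 in each other comparison, as without it, and among all genes 10352, 10859, 29 and 41 were called and 2 in the interaction. Same-numbered libraries deviated together with a mean correlation of 0.055 and 0.063 in the culture comparisons, 0.207 in Tn and 0.437 in Treg cells. The lowest pairs were at -0.022 and -0.058 in culture in WT and Aim2-/- cells, and at 0.00177 between genotypes in Tn cells. Between genotypes in Treg cells, replicates 1, 2 and 4 were at 0.657, 0.469 and 0.597, and replicate 3 was at 0.0244. Since no comparison had all its pairs deviate together, the numbers were not taken to pair the libraries. DESeq2 called 127 genes between genotypes in Tn cells and 52 in Treg cells, against 31 and 29 with edgeR, and 10 interactions against 3. Genes under about 1 CPM, such as Penk and Ebi3 in Tn cells, rest on at most 33 counts per library, which limits what can be seen of them.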
